A study of Homo sapiens with 13 samples.

Results

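Of the 201148 accessible regions listed for H82 cells on chromosomes 1 to 22, 1278 (0.635%) were at least 2000 bp wide and did not overlap a region of H146 cells by a single base. They are called wide H82-only regions here. They were selected on the values of both atlases, their width in H82 and their overlap with H146, so their width and their absence from H146 are descriptions and carry no test. They made up 8.97% of the 14250 wide H82 regions. The other 12972 wide H82 regions overlapped an H146 region and are called wide shared regions. A further 79945 H82-only regions were under 2000 bp and are called narrow. Seen from the other line, 32 of 11966 wide H146 regions (0.267%) lay outside the H82 atlas.

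The data came from ATAC-seq, in which the transposase Tn5 cuts and tags accessible DNA, in H82 and H146, which are established human lines of small cell lung cancer (SCLC) with neuroendocrine features. H82 belongs to the subtype with high NEUROD1 and H146 to another neuroendocrine subtype, and both were of the WT genotype. In each line some cultures were untreated and others received FHD-286 at 100 nM over 14 days. This compound inhibits SMARCA4 and SMARCA2, the ATPases of the SWI/SNF chromatin remodelling complexes. H82 gave 3 libraries of each kind, and H146 gave 4 untreated and 3 treated ones. By the methods, 3 H146 controls were sequenced in 1 batch and the other H146 libraries in another, and the labels do not show which control that was. Each line is a single cell line, and each was deposited as 1 atlas of regions pooled over its untreated and treated libraries, with no height, read count or library of origin. The effect of FHD-286 on these regions was therefore not tested, library depths were unknown, and no value given here has a spread between cultures. A region found in H82 but not in H146 cannot be told apart from one that differs through DNA copies, library number or depth of the lines.

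Accessible regions are stretches where nucleosomes are absent or loosely held. They lie at promoters, where transcription starts, and at distal elements such as enhancers, whose use differs more between cell types than that of promoters. SWI/SNF complexes slide and evict nucleosomes and hold many distal elements open. Clusters of enhancers that are accessible over several kilobases are often found near genes that define a cell's identity. In NEUROD1-high SCLC such genes include OTX2, a homeodomain factor of the eye and forebrain, whose preferred core TAATCC is shared with the related photoreceptor factor CRX. NEUROD1 is a basic helix-loop-helix factor that binds E-boxes, 6-base sites of the form CANNTG, with a preference for CAGATG.

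The 2 atlases were checked against marker genes of the lines by a region at or up to 1 kb from the transcription start site (TSS), taken as the 5′ end of the gene in GENCODE release 44. NEUROD1 and OTX2 had one in H82 and none in H146. INSM1, SYP, CHGA, NCAM1, DLL3, FOXA2, NKX2-1, POU2F3 and YAP1 had one in both lines. PTPRC, EPCAM, COL1A1 and ALB had been chosen as genes of absent lineages. EPCAM and COL1A1 had one in both lines all the same, while the leukocyte gene PTPRC and the liver gene ALB had none in either. A region at the TSS thus did not by itself mark a lineage.

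Stretches of 300 bases show the words of interest at the base level, read from hg38 on the plus strand. They were picked for holding the most matches and are not typical of the regions. Over all wide H82-only regions CAGATG stood at 0.979 and TAATCC at 0.797 per kb. Capitals mark CAGATG or TAATCC on either strand (CATCTG and GGATTA on the other strand). The first is the one with the most matches in a region of 14990 bp that lies 74.6 kb from the TSS of EXOC5, a subunit of the exocyst, inside the segment chr14:56100001-57450000, most of which H82 regions covered. It holds 3 TAATCC and 1 CAGATG.
EXOC5, chr14:57189020-57189319: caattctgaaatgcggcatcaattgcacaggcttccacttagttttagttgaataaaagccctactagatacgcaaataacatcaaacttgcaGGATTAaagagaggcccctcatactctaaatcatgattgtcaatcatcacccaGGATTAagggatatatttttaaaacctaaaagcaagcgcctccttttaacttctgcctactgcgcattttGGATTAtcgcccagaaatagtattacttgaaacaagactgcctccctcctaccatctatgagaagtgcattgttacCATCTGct

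In other regions of chromosome 14 some TAATCC matches stood in TGTAATCC, a word found in the common Alu repeat. For that reason matches inside TGTAATCC were left out when further stretches were looked for on other chromosomes, a choice made after the first ones had been seen. The next pair of stretches come from a region inside SSBP3, a transcriptional co-regulator, 32.1 kb from its TSS, and from a region 3.18 kb from the TSS of NOTCH1, the receptor of a pathway that is low in neuroendocrine SCLC. The SSBP3 stretch holds 1 CAGATG and 2 TAATCC and the NOTCH1 stretch holds 3 CAGATG. Both were again picked for holding the most matches in their regions.
SSBP3, chr1:54378012-54378311: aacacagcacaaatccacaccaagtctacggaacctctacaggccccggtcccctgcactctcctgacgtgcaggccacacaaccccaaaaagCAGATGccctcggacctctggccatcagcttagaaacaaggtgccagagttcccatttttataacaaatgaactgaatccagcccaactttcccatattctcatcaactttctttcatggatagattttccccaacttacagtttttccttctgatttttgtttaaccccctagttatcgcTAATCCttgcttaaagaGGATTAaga
NOTCH1, chr9:136549471-136549770: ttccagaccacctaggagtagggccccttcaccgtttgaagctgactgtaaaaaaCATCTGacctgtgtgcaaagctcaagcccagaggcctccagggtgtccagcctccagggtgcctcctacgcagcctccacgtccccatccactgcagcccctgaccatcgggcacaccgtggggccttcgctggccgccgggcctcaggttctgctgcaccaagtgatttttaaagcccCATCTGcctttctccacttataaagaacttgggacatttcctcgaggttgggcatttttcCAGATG

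The region with most TAATCC of all is shown for another reason. It lies within GSE1, a gene for a chromatin co-regulator, 240 kb from the TSS, is 2713 bp wide, and holds 79 TAATCC matches, against at most 33 in any other wide H82-only region. The matches run over 2667 bp in a tandem repeat, and 29 of the steps from one match to the next were of 32 bp. None of the 79 was in TGTAATCC. Its first 120 bases, which overlap no exon, hold 4 matches in capitals. This region was chosen for its count after the values were seen.
GSE1, chr16:85409864-85409983: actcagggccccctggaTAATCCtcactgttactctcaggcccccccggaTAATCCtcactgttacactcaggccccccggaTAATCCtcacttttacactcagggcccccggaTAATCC

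The wide H82-only regions were mostly little wider than the limit that chose them. The median width was 2523 bp, with quartiles of 2189 and 3090 bp, and together they covered 4054 kb. There were 917 (71.8%) under 3000 bp, 271 from 3000 to under 5000 bp, 62 from 5000 to under 10000 bp and 28 of at least 10000 bp. They were 10.7% of all wide H82 regions under 3000 bp, 6.48 and 5.02% in the next 2 bands, and 9.93% of those of at least 10000 bp. The higher share in the widest band rests on chromosome 14, which held 27 of the 28 regions there. It also held 46 of the 62 from 5000 to under 10000 bp. Just inside the limit lay regions of 2000 bp in the integrin gene ITGAE and near RTL10, and one of 2001 bp in HPCAL1. Just outside it, at 1999 bp, were H82-only regions near SERBP1, EXOC5 and ZFP36L1. Within 100 bp of the limit there were 166 regions above it and 217 H82-only regions below it, so it cut through a continuous range of widths.

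**Figure D1:**
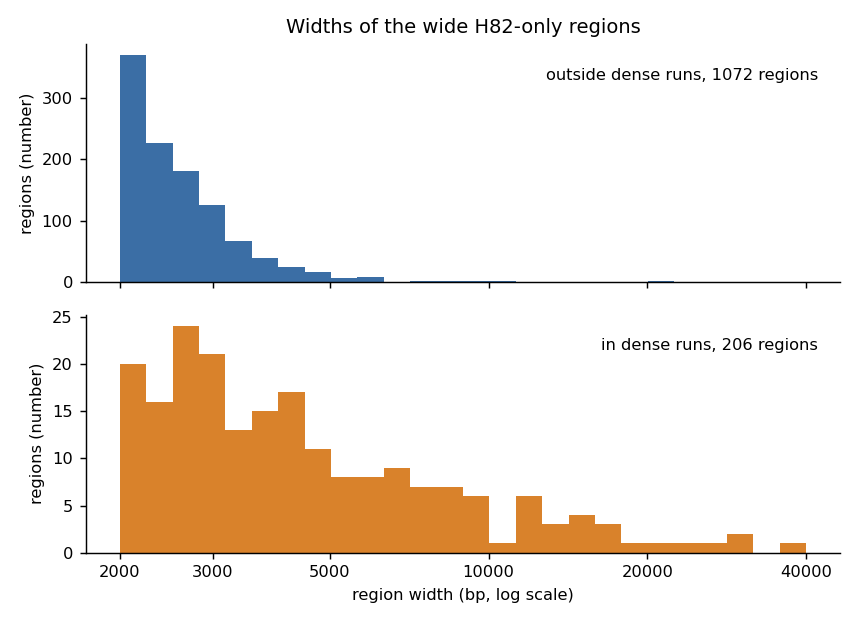
Widths of the wide H82-only regions in bp on a log scale, with the number of regions on a linear scale, for the 1072 outside densely covered runs (upper panel) and the 206 inside them (lower panel). Outside the runs the median was 2427 bp, and inside them it was 3856 bp, with a tail up to 36811 bp. The runs were chosen by their coverage with H82 regions, which favours wide regions.

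They were few at promoters. Of the 1278, 59 (4.62%, Wilson 95% interval 3.60 to 5.91%) lay at most 1 kb from the TSS of a protein-coding gene, and 45 of these held the TSS. Among wide shared regions the share within 1 kb was 42.1% (interval 41.2 to 42.9%), and it was higher than among wide H82-only regions on 22 of 22 chromosomes. Among narrow H82-only regions it was 1.30%, lower than among the wide ones on 15 of 22 chromosomes. With any single chromosome left out, the share among wide H82-only regions stayed between 4.33 and 5.40%. Limiting both wide classes to widths under 3000 bp, an alternative added after the data were seen, gave 5.34% against 39.6%. These intervals cover counting only, and neighbouring regions are not independent.

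The distance from the region edge to the nearest TSS had a median of 41.0 kb (quartiles 12.8 and 123 kb). It was 5.80 kb in wide shared regions, shorter on 22 of 22 chromosomes, and 50.9 kb in narrow H82-only regions. Over 100 kb from any TSS lay 29.2% of the wide H82-only regions against 13.8% of the wide shared ones. By their centres, 48.9% of the wide H82-only regions were in introns of protein-coding genes, 43.3% were intergenic, 3.29% were in coding exons and 4.46% in other exons. The shares among narrow H82-only regions were close to these, with 47.4% in introns and 46.8% intergenic. Counting the start sites of all transcripts in place of the gene's 5′ end raised the promoter share to 16.1%, against 56.4% of wide shared regions.

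Base composition followed the same division. The median GC content was 48.6% (95% interval 47.8 to 49.6%) against 58.2% in wide shared regions, lower on 22 of 22 chromosomes. The observed over expected ratio of CpG, the dinucleotide that is depleted outside CpG islands, had a median of 0.239 against 0.439. Only 44 wide H82-only regions (3.44%) had both a GC content of at least 55% and a CpG ratio of at least 0.6, against 26.5% of wide shared regions. Part of this gap went with promoters. Among regions over 1 kb from any TSS, 1219 wide H82-only and 7513 wide shared, the medians were 48.1 and 56.1% for GC and 0.234 and 0.292 for CpG.

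**Figure D2:**
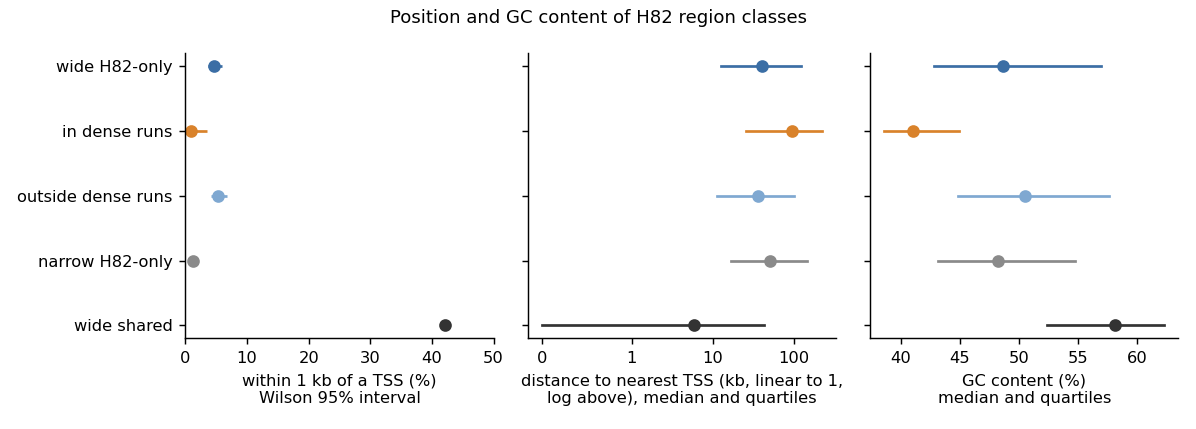
Share of regions within 1 kb of a protein-coding TSS (left, with Wilson 95% intervals), distance to the nearest TSS in kb (middle, linear to 1 kb and log above) and GC content (right), with dots for medians and lines for quartiles. The wide H82-only regions sit next to the narrow H82-only regions and apart from the wide shared ones in all 3 panels. Those in dense runs have the lowest GC content, with a median of 41.0%. Most of them are on chromosome 14, and with it left out their median was 63.0%.

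They were also unevenly spread over the chromosomes. Chromosome 14 held 241 (18.9%), more than any other, followed by chromosome 1 with 224 and chromosome 2 with 114. As a share of all wide H82 regions, chromosome 14 led with 35.6%, then chromosome 21 with 20.6% (43 regions), chromosome 15 with 14.8% (71 regions) and chromosome 1 with 12.9%. The lowest was chromosome 18, with 1.57% (8 regions). In bases, chromosome 14 held 1312 kb, which is 32.4% of all bases in wide H82-only regions. Without it, 7.64% of the wide H82 regions were absent from H146.

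**Figure D3:**
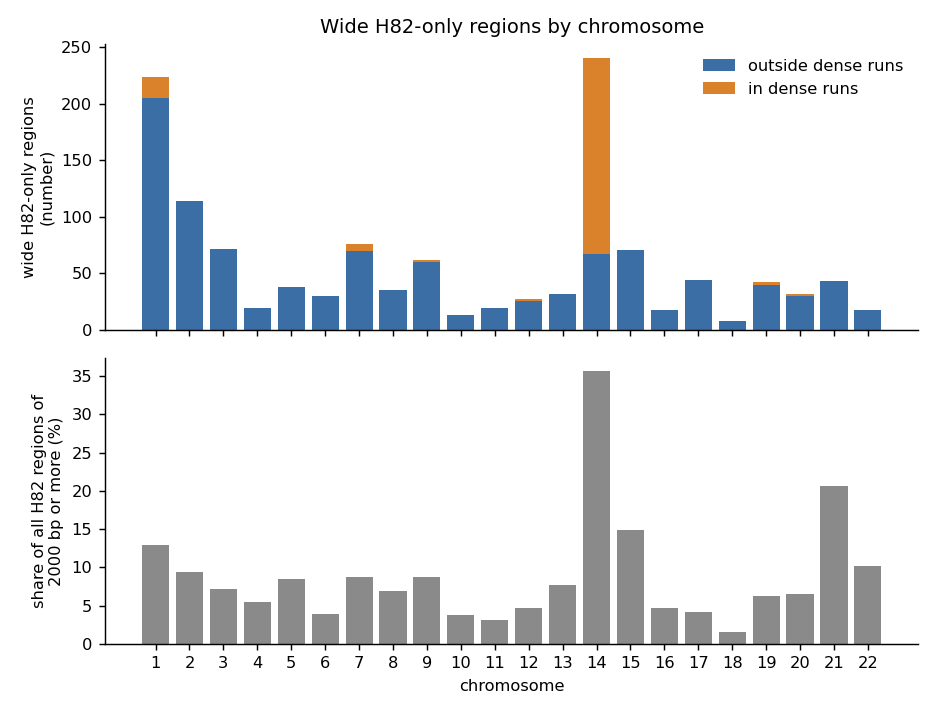
Number of wide H82-only regions per chromosome, split by whether they lie in densely covered runs (upper panel), and their share of all H82 regions of 2000 bp or more in percent (lower panel). Chromosome 14 stands highest in both panels, with 241 regions and 35.6%, and 174 of its regions lie in dense runs.

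Densely covered runs were defined as 4 or more windows of 50 kb that the H82 atlas covered to at least 50%, with gaps of at most 1 window. There were 24 such runs, 15 held a wide H82-only region, and together they held 206 of them (16.1%). Of these, 174 lay in 6 runs of chromosome 14. Regions in dense runs were wider, with a median of 3856 bp against 2427 bp outside, and 25 of the 28 regions of at least 10 kb were in them. The runs were chosen by how much of them H82 regions covered, which favours wide regions. This difference in width is therefore partly built into the definition and is no separate result. Their median GC content was 41.0% against 50.5% outside, and 0.971% of them were within 1 kb of a TSS against 5.32% outside. With chromosome 14 left out, 32 regions in dense runs remained. Their median GC content was 63.0%, and 3.125% were within 1 kb of a TSS. On 6 of 7 chromosomes the regions in dense runs had a higher median GC than all wide H82-only regions of that chromosome. The lower GC content therefore rests on chromosome 14. The other 9 runs held none, 3 of them on chromosome 14, 3 on chromosome 17, 2 on chromosome 8 and 1 on chromosome 9. Their coverage by the H146 atlas differed widely. It was 53.3 to 62.7% on chromosome 17, 38.9% on chromosome 9, 3.43 and 7.79% on chromosome 8, and 1.10, 60.9 and 64.4% on chromosome 14. The 2 runs on chromosome 8, which H82 covered to 98.3 and 99.4%, held 3 wide H82 regions in all. Dense coverage by H82 was found both with and without wide H82-only regions. On chromosome 8 the 3 wide H82 regions each overlapped an H146 region. So did the 2 wide H82 regions of chr14:85950001-86200000, where H146 coverage was 1.10%. Whether the width of such regions accounts for this was not tested, and no contrast is drawn from it. The number of DNA copies in these segments was not measured, and dense coverage cannot be told apart from a gain of copies in H82.

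The run with the largest number, chr14:56100001-57450000, held 67 among 114 wide H82 regions. It contains PELI2, an E3 ubiquitin ligase of innate immune signalling, TMEM260, OTX2, EXOC5, AP5M1 and NAA30. The H82 atlas covered 71.8% of its bases and the H146 atlas 3.74%. At OTX2 itself lay 3 regions. One of 2979 bp (chr14:56816096-56819074) held the TSS, with a GC content of 51.0% and a CpG ratio of 0.584. One of 14339 bp (chr14:56800811-56815149) covered much of the gene from 1.54 kb downstream of the TSS, and one of 3147 bp (chr14:56823370-56826516) lay 6.68 kb upstream. The first held no CAGATG or TAATCC, the second 10 and 7, and the third 2 of each. H146 regions were 2.81, 4.17 and 0.712 kb away from them.

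The H146 atlas covered at most 6.47% of each of the 6 runs of chromosome 14 that held wide H82-only regions. In chr14:62300001-62900000, 37 of 47 wide regions were H82-only, among them the widest of all, 36811 bp (chr14:62486293-62523103), and the second widest, 30806 bp (chr14:62448534-62479339). Both were intergenic, 411 and 373 kb from the start of the gene model ENSG00000289503, and their nearest H146 regions were 12.8 and 11.7 kb away. KCNH5, a voltage-gated potassium channel gene of the nervous system, reaches into this run and carried 16 wide H82-only regions in its body. In chr14:57700001-58250000 there were 22 of 28, and 20 of the 22 overlapped SLC35F4, a gene of the solute carrier family. One of them, of 30448 bp (chr14:57913762-57944209), was the third widest of all. In chr14:59550001-60000000 there were 21 of 41, near CCDC175, RTN1 and LRRC9. RTN1, a reticulon of the endoplasmic reticulum found in neurons and neuroendocrine cells, was covered to 77.2% of its length in H82 and 4.58% in H146. A shorter run, chr14:23150001-23400000, from SLC7A8 to MYH6, held 3 of 6.

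The run chr14:21750001-22050000 held 24 wide H82-only regions among its 25 wide regions and contained no ordinary protein-coding gene. It lies in the T-cell receptor alpha locus, whose germline gene segments are joined in T cells. The span of the 127 T-cell receptor gene segments annotated there held 25 wide H82-only regions, from 2092 to 21553 bp wide, and 15 of them overlapped a segment. The H82 atlas covered 83.8% of the run and the H146 atlas 0.0883%. Of the T-cell and other leukocyte genes in the haematopoietic list none had a wide H82-only region, and PTPRC had no region of either line at its TSS. Outside that list, the leukocyte genes ITGB2 and PRTN3 and the granzyme gene GZMM did have one within 1 kb of the TSS. That of GZMM, named after its values were seen, was 2309 bp wide.

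**Figure D4:**
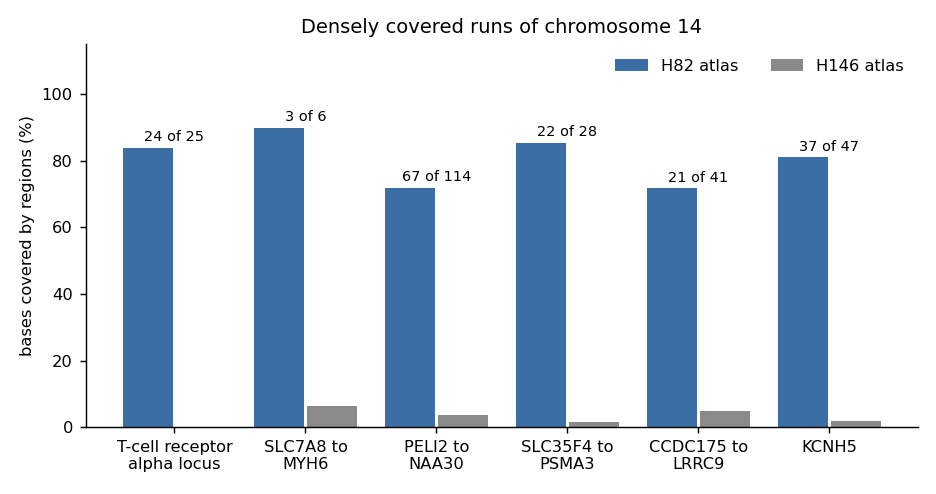
Bases covered by the H82 and the H146 atlas, in percent, in the 6 densely covered runs of chromosome 14 that hold wide H82-only regions, named by their first and last protein-coding gene or by the locus. Numbers above the bars give wide H82-only regions out of all wide H82 regions, and H146 covers at most 6.47% of any run.

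Outside the dense runs the widest regions were scattered. The widest, 21553 bp (chr14:21725870-21747422), lay at the edge of the T-cell receptor run, 52.1 kb from the olfactory receptor gene OR4E1. A pair of 11241 and 9570 bp stood 357 and 376 kb from RPL10L on chromosome 14. One of 10850 bp (chr18:21221512-21232361) was 9.87 kb from GREB1L, and held 33 TAATCC, 28 of them in TGTAATCC. One of 8307 bp (chr14:74598275-74606581) was in LTBP2, which encodes a protein of elastic fibres and carried 11 wide H82-only regions in its body. The others were of 7518 bp near MSRA, 6196 bp near GORASP2, 6168 bp in SSBP3, 6132 bp near CROCC and 6062 bp in AHDC1. The MSRA region was 145 kb from a TSS and had a CpG ratio of 0.604.

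By nearest TSS the regions belonged to 896 genes, of which 745 had 1 and 23 had at least 5. The 10 genes with the most were all on chromosome 14. OR4E1 had 25, which are the T-cell receptor regions, KCNH5 20, CCDC198 and OTX2 19 each, SLC35F4 18, ENSG00000289503 17, EXOC5 16, TMEM260 13, PELI2 12 and RTN1 8. Off chromosome 14 no gene had more than 6. ROCK1, CASZ1, XKR6, GINS2 and PINX1 had 5 each and were named after their values were seen. CASZ1 is a zinc-finger factor of neural and heart development, and 4 regions lay in its body, which H82 covered to 43.6% and H146 to 2.97%. TP73, a p53 relative also named after its values were seen, held 7 in its body, with coverage of 56.4 and 6.09%.

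Of the regions near a TSS, the widest are described with their genes. The homeobox gene BARHL2, a factor of retinal and brain neurons, had a region of 3553 bp (chr1:90716303-90719855) with a GC content of 61.1% and a CpG ratio of 0.911, and an H146 region 0.632 kb away. OTX2 was also among the 15 widest. HOXD8 (2605 bp) and HOXD9 (2375 bp), with the forkhead gene FOXB2 (2822 bp) and the oligodendrocyte lineage gene OLIG1 (2424 bp), were found lower down and were named after their values were seen.

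Other genes of the 15 widest are given with what each is known for, and no gene group was counted here. SLC1A7, a glutamate transporter of the retina, carried a 3816 bp region (chr1:53140226-53144041) that held its TSS, with a GC content of 52.0% and a CpG ratio of 0.217. ABCA4, the retinoid transporter of photoreceptor discs, had one of 3452 bp (chr1:94119475-94122926) with a ratio of 0.239, and the nearest H146 region was 13.6 kb away. NEFM, a neurofilament subunit, had a region of 2935 bp and a ratio of 0.768. UCN, the peptide urocortin, had one of 3077 bp. GALNT13, a glycosyltransferase of neural cells, had one of 3457 bp.

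MASP2, a complement protease made in the liver, had the widest promoter region of all, 4324 bp (chr1:11043239-11047562). The leukocyte integrin gene ITGB2 had one of 3317 bp ending 0.513 kb from its TSS, and PRTN3, a protease of neutrophils, had one of 2961 bp. GGT5 had 3396 bp, PRR22 2927 bp, SHISA3 2917 bp and STRC, a protein of inner ear hair cells, 3189 bp. STRC has a near-identical pseudogene copy, so reads there may be placed wrongly. Of the 59 regions, 19 were CpG-rich by both limits, and 32 had a CpG ratio under 0.4.

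The promoters of BARHL2 and SLC1A7 show both kinds. They are the 250 bases before the TSS in the RefSeq promoter table (GRCh38.p14), written along the gene, which is on the minus strand in both cases, with GC boxes (GGGCGG or CCGCCC) in capitals. The BARHL2 stretch has 19 CpG and 2 GC boxes and that of SLC1A7 has 2 CpG and none. Of the 39 promoter entries of this table that fell on the 59 regions, 43.6% held a GC box and 15.4% held CAGATG, on either strand. Over all 33725 autosomal entries the shares were 42.7 and 12.2%. None of the 39 held TAATCC, against 5.62% of all. Some genes, such as PROM1 and INPP5B, had several of the 39 entries. With so few entries no contrast is drawn from this.
BARHL2 promoter, chr1:90717303-90717552: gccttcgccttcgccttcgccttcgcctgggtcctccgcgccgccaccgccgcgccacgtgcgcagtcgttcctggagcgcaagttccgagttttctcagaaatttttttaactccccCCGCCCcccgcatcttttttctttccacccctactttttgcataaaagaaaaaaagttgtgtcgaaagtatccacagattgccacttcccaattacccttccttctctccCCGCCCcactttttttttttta
SLC1A7 promoter, chr1:53142639-53142888: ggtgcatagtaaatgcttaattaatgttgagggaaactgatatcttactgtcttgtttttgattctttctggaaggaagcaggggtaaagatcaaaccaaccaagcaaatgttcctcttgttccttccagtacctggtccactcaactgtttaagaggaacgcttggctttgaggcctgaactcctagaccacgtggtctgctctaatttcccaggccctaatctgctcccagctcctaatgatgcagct

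Of 1461 microRNA hairpins in the RefSeq table, 6 lay in wide H82-only regions. Hairpins in other region classes were not counted, so whether 6 is many or few was not tested. They were MIR9-3, MIR8083, MIR3921, MIR5586, MIR4310 and MIR4745. MIR9-3 encodes miR-9, a neural microRNA, at chr15:89368017-89368106 on the plus strand, in a region of 2168 bp with a GC content of 63.9% and a CpG ratio of 0.666, and the nearest H146 region was 3.03 kb away. Its mature forms, chosen after the values were seen, are given with the seed, bases 2 to 8, in capitals.
miR-9-5p: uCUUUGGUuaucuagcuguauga
miR-9-3p: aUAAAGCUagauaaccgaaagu

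Gene groups were read by whether a gene had a wide H82-only region within 10 kb of its TSS, and against all protein-coding genes, of which 325 of 19111 (1.7%) had one. Counting the gene body and 10 kb to either side, 886 (4.64%) had one. Among 28 photoreceptor and pineal genes 2 had one. They were OTX2, with 3 regions, and the retinal homeobox gene RAX2, with a region of 2394 bp (chr19:3773672-3776065) 1.44 kb from its TSS. By the gene body, NRL, a rod photoreceptor factor, and GNGT1, a subunit of rod transducin, joined them, for 4 of 28. Among 16 proneural and neurogenic factors there was 1, NHLH1, a neuronal helix-loop-helix factor, with a region of 2732 bp (chr1:160361622-160364353) 2.72 kb away. NEUROD1 itself had none within 10 kb, so its H82 region at the TSS is not among the 1278.

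Of 21 neuroendocrine markers, RTN1 was the single gene with one near its TSS, and ELAVL4, an RNA-binding protein of neurons, had 2 in its body. Of 19 low-neuroendocrine and Hippo pathway genes NOTCH1 had 1. The 28 axon guidance genes, 24 synaptic vesicle genes, 26 potassium channel genes, 28 SWI/SNF subunits and 19 collagen genes had none within 10 kb of a TSS. By the gene body they had 5 (PLXNA2, NRP2, PLXNA4, UNC5B and SEMA6D), 2 (SV2B and SV2C), 5 (among them KCND3, KCNH8, KCNH5 and KCNJ6), 2 (ARID1B and SMARCB1) and 4 (COL1A2, COL18A1, COL6A1 and COL6A2), named after their values were seen. Gene length differed as well, with a median of 27.9 kb over all genes against 50.7 kb over those with a region, 322 kb in the axon guidance list and 290 kb in the potassium channel list. None of the 14 FOXA and endoderm factors, 13 housekeeping genes and 14 haematopoietic genes had a region by either count. With at most 5 genes a list, these counts rest on few genes.

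Most wide H82-only regions had H146 regions close by. The nearest H146 region was a median of 4.71 kb away (quartiles 2.01 and 11.9 kb), 660 (51.6%) had one within 5 kb and 30 within 500 bp. At the other end, 61 were over 50 kb from any H146 region, the farthest being the DAPK1 region, 259 kb away. In the 100 kb around a wide H82-only region, H146 regions covered a median of 4.84% of the bases, and the median was 1.96% around those in dense runs. No comparison with wide shared regions is drawn from this, since they were defined by holding an H146 region. Spacing within the class was wider than among the more numerous wide shared regions, as 24.9% lay within 10 kb of the next one, against 37.5% of wide shared regions, and 47.6% within 100 kb, against 78.5%.

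Motif words were counted on both strands and compared as matches per kb with wide shared regions. TAATCC, the OTX2 and CRX core, stood at 0.797 per kb against 0.460, a log2 ratio of 0.79 (95% counting interval 0.74 to 0.85), and was denser on 22 of 22 chromosomes. CAGATG, the E-box preferred by NEUROD1, stood at 0.979 against 0.754 per kb, a log2 ratio of 0.38 (0.33 to 0.42), and was denser on 21 of 22. Outside the dense runs its ratio was 0.53. The E-box CATATG had a log2 ratio of 0.90, the homeobox word TAATTA 0.72, the POU octamer ATGCAAAT 0.78 and the GATA word AGATAAG 0.62. Outside the dense runs these ratios were 0.71, 0.40, 0.41 and 0.53, in that order. The words were denser on 20, 17, 16 and 16 of 22 chromosomes. The E-box CAGGTG was less dense, at -0.33, and CAGCTG stood at -0.19 in all and at 0.02 outside the dense runs. GC boxes were less dense on 22 of 22 chromosomes, with a log2 ratio of -1.48, and the ETS word CCGGAAGT (-1.47) and the CTCF word (-1.56) were low as well. Of 23 words, 16 had an interval above 0 and 6 one below 0, and 8 were denser on at least 18 chromosomes.

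Several of these ratios were close to those of a composition control. The same words read backwards, which have the same bases, had log2 ratios of 0.85 for TAATCC, 0.34 for CAGATG, 0.95 for CATATG, 0.98 for TAATTA and -1.64 for the GC box. The GATA word had 0.88 backwards, above its own 0.62. The ETS word had -0.25 backwards, on 30 forward matches in wide H82-only regions. The POU octamer had 0.20 backwards, but that word is rare, with 21 matches in wide H82-only regions and 208 in wide shared ones. Its own ratio was 0.41 outside the dense runs, against 0.78 in all. In an alternative added after the data were seen, both classes were limited to regions over 1 kb from any TSS. There CAGATG fell to a ratio of 0.18 against 0.27 backwards, and TAATCC had 0.75 in both directions. Outside the dense runs CAGATG read forwards had 0.32, and its reversed word was not compared there. In the same distal regions the POU octamer had 0.70 in all and 0.37 outside the dense runs. A reversed word controls for base composition only, and may itself belong to a repeat or to another site. Nor does it hold CpG equal. Read backwards, the POU octamer gains a CpG and the ETS word loses its own. CpG was scarcer in wide H82-only than in wide shared regions, so these 2 gaps between directions cannot be told apart from CpG content.

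Against narrow H82-only regions the order turned. These held 1.31 TAATCC and 1.26 CAGATG per kb, so the wide ones had log2 ratios of -0.71 and -0.37 to them. In the wide H82-only regions CAGATG was slightly denser in the central 500 bp than in the rest, at 1.04 against 0.968 per kb, while TAATCC stood at 0.806 and 0.796. A part of the TAATCC matches stood in the longer word TGTAATCC. No repeat annotation was used, so how many of these lay in repeats was not determined. In wide H82-only regions 34.5% of the matches lay in TGTAATCC, against 42.2% in wide shared and 26.5% in narrow H82-only regions. Without them the log2 ratio to wide shared regions was 0.98 and that to narrow H82-only regions -0.88. The tandem repeat in GSE1 accounted for 79 of the 3233 matches.

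**Figure D5:**
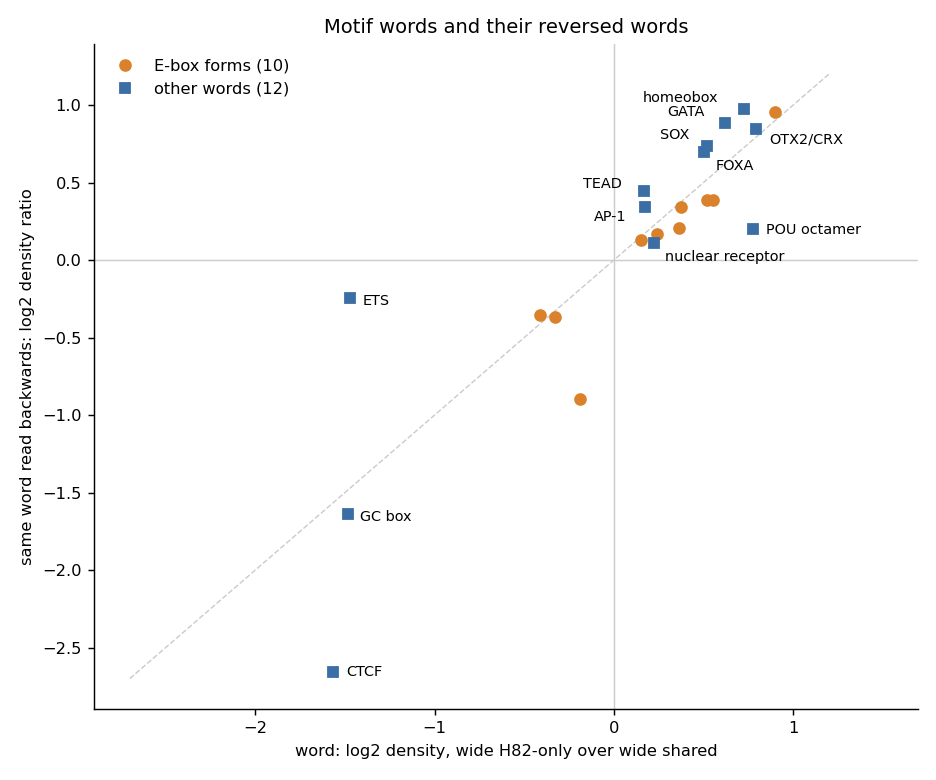
Log2 ratio of matches per kb in wide H82-only over wide shared regions for each word (horizontal axis) and for the same word read backwards (vertical axis), for 10 E-box forms and 12 other words, with a dashed line where both are equal. Many words lie near the line, among them OTX2/CRX at 0.79 and 0.85, while the POU octamer lies to the right of it at 0.78 and 0.20, the latter on 21 matches. The octamer read backwards contains a CpG, which the octamer itself does not.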

How the data were processed

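ATAC-seq was performed on 13 libraries of 2 cell lines. Per the methods, the authors trimmed paired reads with Trim Galore 0.4.4, aligned them to hg38 with Bowtie2 2.3.4, removed duplicates with Picard, called regions in each sample with MACS2, removed blacklisted regions and merged regions lying within 500 bp. The authors deposited 1 atlas for each line, with chromosome, start and end and no other unit. Replicates and treatments were pooled, so no FHD-286 comparison was fitted and depth per sample is unknown. Columns of per-sample values left aside numbered 0.

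Region overlap, distances to GENCODE release 44 genes, base composition and exact words on both strands were computed in Python 3.11.15 with numpy 2.4.6, pandas 2.3.3 and SciPy 1.17.1. The functions were tested on simulated data, and bedtools 2.31.1 gave the same 1278 regions, with 0 differing. Shares carry Wilson 95% intervals, medians order-statistic intervals and word ratios Poisson intervals. All cover counting only, and no p-value was computed. The CTCF and NFI words were longer patterns that allowed any base at some positions. The soft-masked share that had been planned could not be computed because the reference was all in capitals.

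The regions, the 12 gene lists (258 genes) and the alternatives were chosen with earlier results of these data known. Genes were named as the 10 widest regions outside and 3 widest inside dense runs, the 10 genes nearest to most regions, the 15 widest promoter regions, list genes with a region within 10 kb, and 3 regions on each side of the width limit. Alternatives changed the width limit, the distance to H146 regions, the TSS definition and window, and the chromosomes and runs included. A few genes and sequences that this naming would include are not reported here.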

Additional observations from a re-analysis of the deposited data

How the results depend on the processing

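No paired analysis was possible because each line was deposited as 1 atlas pooled over its libraries, and for the same reason no library could be left out in turn. Of 66 values recomputed under alternatives for the main results, 39 stayed within their interval or within 1.5 times, 27 moved, and 0 turned against wide shared regions. Counts of regions, genes and words had no value of wide shared regions to turn against, so this 0 covers the other measures alone. With widths of at least 1500 bp there were 2997 regions and 685 genes with one within 10 kb. With at least 3000 bp there were 361 regions, 63 genes, a promoter share of 2.77%, a median TSS distance of 54.5 kb, GC of 46.0% and CpG of 0.227. With no H146 region within 5 kb there were 618 regions, 84 genes, a distance of 69.9 kb, GC of 45.7% and CpG of 0.221. Against H146 regions of at least 300 bp alone, the distance was 37.0 kb and GC 50.8%. Without chromosomes 8 and 14 they were 34.1 kb and 51.4%, with CpG of 0.256. Without the dense runs they were 36.3 kb and 50.5%, with CpG of 0.247. In widths under 3000 bp, GC was 49.98%. The promoter share was 12.7% with a window of 5 kb, 21.8% with 10 kb, and 16.1% with the start sites of all transcripts, where the median distance was 16.2 kb. By gene body, 886 genes had a region. The number of words with an interval above 0 was 13 to 16 of 23. Single words moved more, between 0.14 and 0.65 for CAGATG, 0.35 and 1.13 for TAATCC and -2.05 and -0.61 for the GC box on the log2 scale. With no read counts, a region missing from H146 may lie just under its calling threshold, and the cause of each shift was not tested.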

Other observations

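Beyond promoters, 25 wide H82-only regions lay on CpG-rich sequence over 1 kb from any protein-coding TSS. A pair of them lay near genes of the nervous system, named here after their values were seen. A region of 4851 bp lay near SKOR1, a transcriptional co-repressor of the nervous system, and one of 2815 bp lay near GAD1, which makes the transmitter GABA.

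Among windows of 1 Mb, the 5 with the most wide H82-only regions were on chromosome 14 and held 186 of the 1278. Outside such clusters, 415 of the 634 windows with a region held 1. Among promoter regions, those of DAPK1, PPIC and APBA2 were farthest from H146 regions, at 259, 205 and 147 kb.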
